A study of Homo sapiens with 10 samples.

Results

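The antigen processing and MHC class I genes described here are TAP1, TAP2, TAPBP, PSMB8, PSMB9, PSMB10, B2M, HLA-E, HLA-F and NLRC5, 10 genes of 19775 with a probe set on the array. They were taken by symbol from the platform annotation, and of several probe sets of 1 gene the brightest stands for it, by mean log2 signal over the 10 arrays. A gene was tested if that mean reached the median of all probe sets, a signal of 66.7, and all 10 genes did, among 12514 tested genes. Their symbols were on 21 probe sets, and 5 of the genes (TAP1, PSMB8, PSMB9, PSMB10 and NLRC5) had 1 probe set each. A further 6 probe sets carried several HLA symbols, and none of these 6 included a member or any class I symbol.

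The series measured total RNA of 2 human lung cancer cell lines, both from non-small cell carcinomas, on Affymetrix U133 Plus 2.0 arrays. The lines are A549 and H1650, and H1650 has an EGFR mutation per the labels. The series asks which genes lie downstream of ID1, an inhibitor of basic helix-loop-helix transcription factors. In each line there was 1 array for each of 5 conditions: ID1 siRNA under nicotine or under EGF, and control siRNA under nicotine, under EGF or without a stimulus. Cells of all groups were serum starved for 48 h, and stimulated cells then received 1 µM nicotine or 100 ng/ml EGF (epidermal growth factor, the ligand of EGFR) for 18 h. No array of ID1 siRNA without a stimulus was analysed here, and the siRNA sequences are not given in the sources used here. The labels do not say whether the arrays of a line came from different cultures, so p-values measure only how far the effects of siRNA, line and stimulus vary among these arrays, which may be technical. A line stands for 1 cancer genome, and fewer cells expressing a gene cannot be told apart from less RNA per cell.

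MHC class I molecules show peptides from inside the cell to CD8 T cells. The peptides are cut by the proteasome, whose PSMB8, PSMB9 and PSMB10 subunits form the interferon-inducible immunoproteasome, pumped into the endoplasmic reticulum by the TAP1 and TAP2 transporter, and loaded with the help of tapasin (TAPBP) onto a class I heavy chain paired with beta-2 microglobulin (B2M). NLRC5 is the transactivator of class I and associated genes, and loss of this pathway is a known route by which lung tumours become less visible to T cells.

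Signals below are linear MAS5 values, listed in the order nicotine, EGF and, for control siRNA, no stimulus. ID1 had signals of 1343 and 1343 with ID1 siRNA in A549, against 3719.8, 3049 and 1645 with control siRNA. ID1 had signals of 881 and 1031 with ID1 siRNA in H1650, against 4964, 5121 and 5029.9 with control siRNA. The ID1 siRNA arrays were the lowest of their line in both lines, and the unstimulated A549 control was the closest to them. Limma gave log2 fold changes of -1.33 ± 0.11 in A549 (SE; adjusted p = 0.000105) and -2.40 ± 0.11 in H1650 (adjusted p = 8.66e-05). The 6 epithelial markers of the cell lines were all above the signal filter, while 1 of 6 measured leukocyte markers was, ITGAM.

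With ID1 siRNA, 9 of the 10 genes rose in A549 (limma, Benjamini-Hochberg adjusted p under 0.05 over 12514 genes), against 13.8% of all tested genes called higher there. B2M was the exception. The largest increases were 4.37-fold for the immunoproteasome subunit PSMB9, 4.35-fold for the transactivator NLRC5, 4.21-fold for the class I heavy chain HLA-F and 4.13-fold for the transporter subunit TAP1. The median log2 fold change was 1.48 over the 10 genes and 0.05 over all tested genes. In H1650 none of the 10 rose, against 5.64% of all tested genes, and 4 fell (TAP1, PSMB9, HLA-E and HLA-F), against 6.66%. The median there was -0.40 over the 10 genes and -0.01 over all tested genes. Without the pair block 1 of these 4 calls in H1650 remained, that of HLA-F. Without the intensity trend of limma, 0 of these 4 calls in H1650 remained and 1 of all tested genes was called there, against 8 of the 10 genes and 1394 of all tested genes in A549. With arrays centred on their median, 948 tested genes were called higher and 3966 lower in A549, against 1733 and 1428 as scaled by the authors, and 617 higher and 1128 lower in H1650, against 706 and 834. Of the 10 genes 8 rose in A549 with that centring and 6 fell in H1650.

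**Figure D1:**
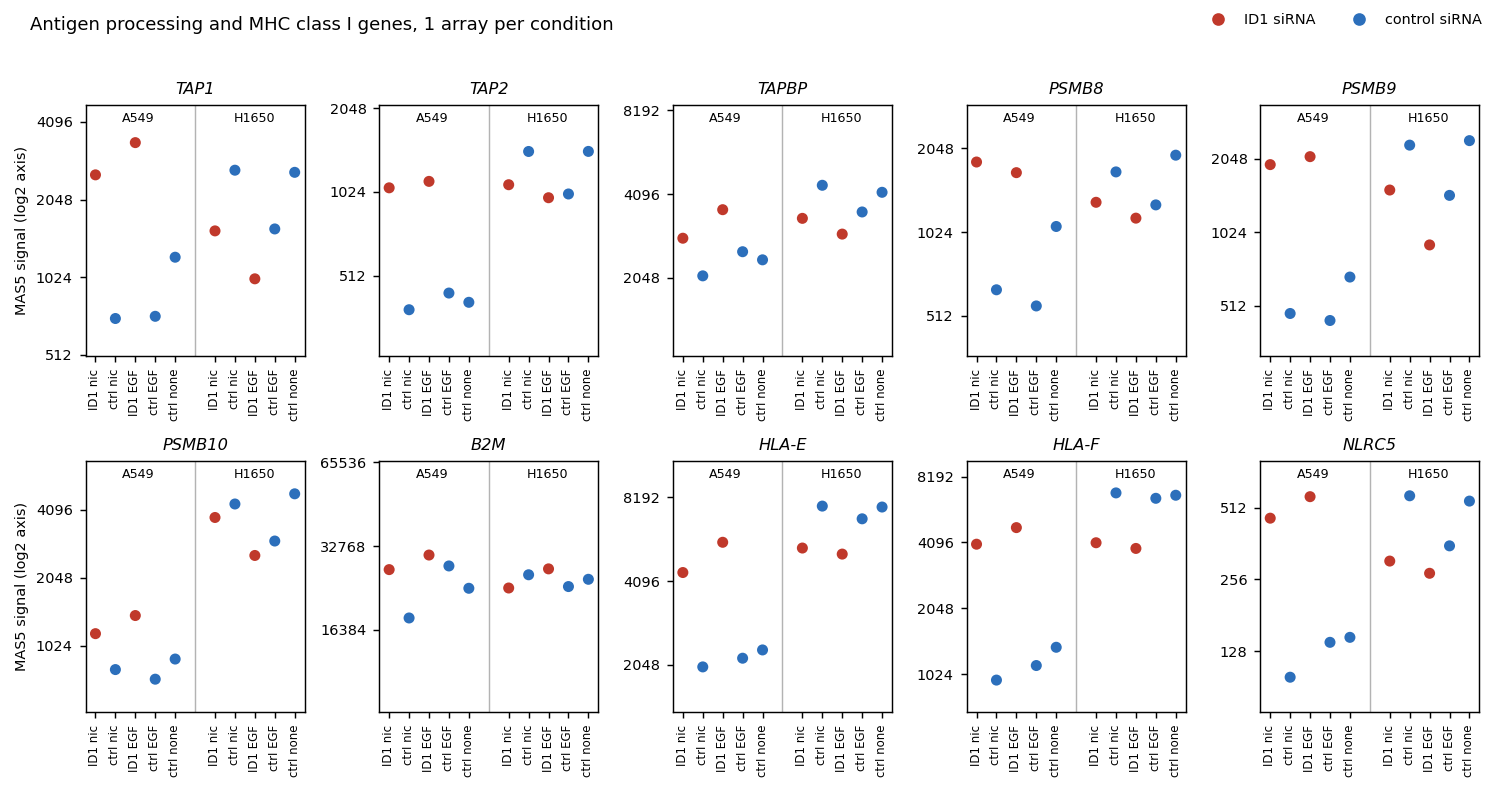
Linear MAS5 signal (log2 axis, a separate scale for each gene) of the 10 genes on each of the 10 arrays, with A549 on the left and H1650 on the right of each panel. Points are single arrays, red for ID1 siRNA and blue for control siRNA, and 9 of 10 genes have both A549 ID1 siRNA arrays above the 3 A549 control arrays.

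Shown is the stretch before the transcription start of members whose RefSeq window holds the core of the interferon-stimulated response element upstream of a start. The window (GRCh38.p14) runs from 250 bases before to 50 after a start. The core is read as GAAA, 2 bases of any kind and GAAA on either strand, and the match had to lie within the upstream part. Capitals mark the matches, each sequence runs 5′ to 3′ on the strand of its gene, and overlapping matches are joined.
TAP1: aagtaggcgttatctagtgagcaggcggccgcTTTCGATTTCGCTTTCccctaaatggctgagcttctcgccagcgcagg
TAP2: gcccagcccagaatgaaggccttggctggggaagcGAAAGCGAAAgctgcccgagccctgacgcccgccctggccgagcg
TAPBP: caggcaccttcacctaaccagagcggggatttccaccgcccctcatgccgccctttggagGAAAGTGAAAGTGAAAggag
PSMB10: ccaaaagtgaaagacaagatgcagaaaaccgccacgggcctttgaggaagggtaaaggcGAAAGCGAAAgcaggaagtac
B2M: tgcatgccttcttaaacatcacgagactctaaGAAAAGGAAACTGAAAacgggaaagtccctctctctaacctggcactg
HLA-F: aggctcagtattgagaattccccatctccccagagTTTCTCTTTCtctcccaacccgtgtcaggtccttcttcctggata

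These stretches of 80 bases lie at chr6:32853791-32853870 (TAP1, minus strand), chr6:32838753-32838832 (TAP2, minus strand), chr6:33314079-33314158 (TAPBP, minus strand), chr16:67936851-67936930 (PSMB10, minus strand), chr15:44711341-44711420 (B2M, plus strand) and chr6:29723243-29723322 (HLA-F, plus strand). A match starts 134 bases before the start in TAP1, 58 in TAP2, 20 in TAPBP, 21 in PSMB10, 144 in B2M and 156 in HLA-F. TAP1, TAPBP and B2M each hold 2 overlapping matches, which share 1 of their GAAA groups. A match in PSMB8 begins 4 bases before 1 of its 2 starts in the table and runs across it, and PSMB9 had none in its window. HLA-E and NLRC5 are named only. In all, 7 of the 8 genes with a window held the letters in at least 1 of their windows. Of 35116 single windows of this length in the table, 3.57% held them. The first count is of genes, TAP1 and PSMB8 with 2 windows each, and the second is of windows.

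Of the other motifs searched on both strands, the interferon gamma-activated site TTCNNNGAA was in the windows of 2 of 8 genes, TAP1 and PSMB8, each of which has 2 windows, against 7.66% of all windows. The NF-kB motif, read as GGGA, 4 bases of any kind and CC, was in 3 of 8 (TAP1, TAPBP and B2M; 25.6% of windows), and the inverted CCAAT box ATTGG in 4 of 8 (TAP1, PSMB9, B2M and HLA-F; 34.6% of windows). The E-box CAGGTG, a kind of site bound by the E proteins that ID1 sequesters, was in 2 of 8 (PSMB8 and B2M), against 20.6% of windows. B2M, the member not called with ID1 siRNA in A549, held 2 overlapping response element matches and an E-box. These matches are descriptions of sequence, and no binding was measured.

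TAP1 and TAP2 form the ATP-driven peptide transporter of the endoplasmic reticulum. TAP1 had signals of 2554 and 3406 with ID1 siRNA in A549, against 708, 722 and 1224 with control siRNA. In H1650, TAP1 had signals of 1548 and 1009 with ID1 siRNA, against 2662, 1575 and 2612 with control siRNA. The siRNA groups did not overlap in either line, and lay in opposite order in the 2 lines. The log2 fold change of TAP1 was 2.04 ± 0.12 in A549 (SE; limma adjusted p = 1.66e-05) and -0.71 ± 0.12 in H1650 (limma adjusted p = 0.00775).

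TAP2 had signals of 1059 and 1117 with ID1 siRNA in A549, against 386, 443 and 410 with control siRNA. In H1650, TAP2 had signals of 1086 and 975 with ID1 siRNA, against 1430.2, 1006 and 1431 with control siRNA. The A549 groups lay far apart, whereas in H1650 the nicotine array with ID1 siRNA was above the EGF array with control siRNA. TAP2 rose by a log2 fold change of 1.39 ± 0.13 in A549 (limma adjusted p = 0.000207), and its value in H1650 was -0.22 ± 0.13 (limma adjusted p = 0.329).

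Tapasin, encoded by TAPBP, bridges the transporter and the empty class I molecule. TAPBP had signals of 2842 and 3599 with ID1 siRNA in A549, against 2081, 2542 and 2377 with control siRNA. In H1650, TAPBP had signals of 3350.2 and 2941 with ID1 siRNA, against 4405, 3532 and 4156 with control siRNA. The groups did not overlap in either line, but the distances were small beside those of TAP1. The log2 fold change was 0.48 ± 0.10 in A549 (limma adjusted p = 0.00799), the smallest of the 9 called there, and -0.33 ± 0.10 in H1650 (limma adjusted p = 0.057). The A549 call of TAPBP was lost with each array centred on its median (log2 fold change 0.19, limma adjusted p = 0.183) and on its second probe set (0.34, limma adjusted p = 0.317). It was lost as well without the intensity trend and without the pair block (limma adjusted p = 0.0671 and 0.0625). It was also lost without the A549 EGF array of ID1 siRNA or that of control siRNA, where the log2 fold change, 0.45 in both cases, rests on the nicotine pair alone.

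PSMB8, PSMB9 and PSMB10 replace the constitutive catalytic subunits PSMB5, PSMB6 and PSMB7 in the immunoproteasome. PSMB8 had signals of 1828 and 1674 with ID1 siRNA in A549, against 635, 555 and 1072 with control siRNA. In H1650, PSMB8 had signals of 1309.6 and 1149 with ID1 siRNA, against 1684, 1282 and 1934 with control siRNA. In A549 the groups were apart, with the unstimulated control the nearest to the ID1 siRNA arrays, and in H1650 they overlapped narrowly. The log2 fold change of PSMB8 was 1.56 ± 0.11 in A549 (limma adjusted p = 4.55e-05) and -0.26 ± 0.11 in H1650 (limma adjusted p = 0.167).

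PSMB9 had signals of 1939 and 2090.3 with ID1 siRNA in A549, against 476, 446 and 671 with control siRNA. In H1650, PSMB9 had signals of 1526 and 909 with ID1 siRNA, against 2330.1, 1451 and 2431 with control siRNA. Within each H1650 stimulus the array with ID1 siRNA was the lower, although the groups overlapped across stimuli. PSMB9 rose in A549 by a log2 fold change of 2.13 ± 0.11 (limma adjusted p = 8.85e-06) and fell in H1650 by 0.64 ± 0.11 (limma adjusted p = 0.00806).

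PSMB10 had signals of 1156 and 1391 with ID1 siRNA in A549, against 801, 726 and 892 with control siRNA. In H1650, PSMB10 had signals of 3790.3 and 2571 with ID1 siRNA, against 4350.4, 2979.6 and 4827 with control siRNA. The A549 groups were apart by less than those of PSMB8 and PSMB9, and the H1650 groups overlapped. The log2 fold change was 0.73 ± 0.12 in A549 (limma adjusted p = 0.0029) and -0.21 ± 0.12 in H1650 (limma adjusted p = 0.308).

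Set against its constitutive counterpart on the same array, each immunoproteasome subunit gained with ID1 siRNA in A549. The ratio of PSMB8 to PSMB5 signal was 5.12-fold higher with ID1 siRNA than with control siRNA under nicotine and 5.33-fold higher under EGF. For PSMB9 to PSMB6 these folds were 4.96 and 7.0, and for PSMB10 to PSMB7 they were 1.68 and 2.99. In H1650 the same folds were 1.11 and 1.29 for PSMB8 to PSMB5, 0.672 and 0.618 for PSMB9 to PSMB6, and 0.954 and 0.907 for PSMB10 to PSMB7. The constitutive subunits contributed to the A549 values: PSMB5 fell by 0.83 ± 0.09 on the log2 scale (limma adjusted p = 0.000583), PSMB6 by 0.43 ± 0.12 (limma adjusted p = 0.0327) and PSMB7 by 0.43 ± 0.14 (limma adjusted p = 0.0488). Under quantile normalization 1 of these 3 was called. In H1650 1 of the 3 fell, PSMB5, by 0.52 ± 0.09 (limma adjusted p = 0.0103). The ratios are descriptions of single arrays with no test, and only their change between arrays has a meaning, since the probe sets differ in brightness.

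**Figure D2:**
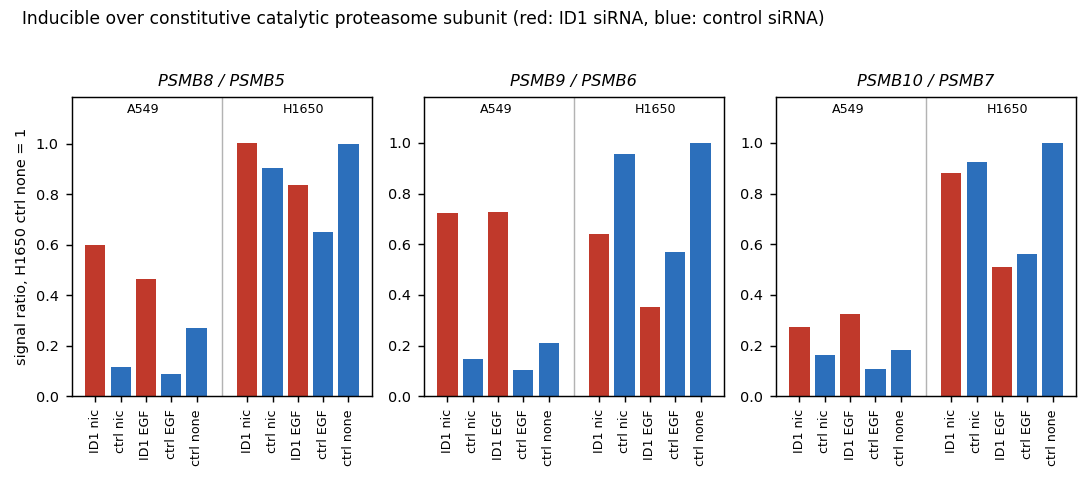
Ratio of each inducible to its constitutive catalytic proteasome subunit on each array, divided by the same ratio on the unstimulated H1650 control array, so that this array stands at 1. Bars are single arrays, red for ID1 siRNA and blue for control siRNA. In A549 the PSMB9 to PSMB6 ratio with ID1 siRNA is 4.96-fold and 7.0-fold that of the matched controls.

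HLA-E and HLA-F are non-classical class I heavy chains. HLA-E presents leader peptides of other class I molecules to NKG2A receptors of NK and T cells. HLA-E had signals of 4399 and 5651 with ID1 siRNA in A549, against 2014, 2165 and 2318 with control siRNA. In H1650, HLA-E had signals of 5388 and 5125 with ID1 siRNA, against 7624, 6863 and 7566 with control siRNA. The groups did not overlap in either line. HLA-E rose in A549 by a log2 fold change of 1.26 ± 0.11 (limma adjusted p = 0.000112) and fell in H1650 by 0.46 ± 0.11 (limma adjusted p = 0.0242). That call of HLA-E in H1650 was lost without any 1 of the 4 stimulated H1650 arrays, which leaves 1 pair for the estimate. The log2 fold change was -0.42 without either nicotine array and -0.50 without either EGF array.

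HLA-F had signals of 4022 and 4788 with ID1 siRNA in A549, against 965, 1124 and 1362 with control siRNA. In H1650, HLA-F had signals of 4084 and 3847 with ID1 siRNA, against 6895, 6515 and 6728 with control siRNA. Both comparisons separated widely, and the ID1 siRNA arrays of the 2 lines had similar signals. The log2 fold change of HLA-F was 2.08 ± 0.09 in A549 (limma adjusted p = 4.83e-06) and -0.76 ± 0.09 in H1650 (limma adjusted p = 0.00241). The probe sets of HLA-E and HLA-F used here are of the class that Affymetrix marks as able to bind other transcripts, so their signals may include related class I heavy chains.

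B2M, the light chain shared by class I molecules, was near the top of the range of the arrays, whose highest signals lay between 30639 and 56869. B2M had signals of 26992 and 30453 with ID1 siRNA in A549, against 18087, 27820.2 and 23127 with control siRNA. In H1650, B2M had signals of 23179.9 and 27158 with ID1 siRNA, against 25864, 23459 and 24911 with control siRNA. The groups overlapped in both lines. Its log2 fold change was 0.35 ± 0.18 in A549 (limma adjusted p = 0.18) and 0.03 ± 0.18 in H1650 (limma adjusted p = 0.949). In A549 B2M was called under quantile normalization (0.66, limma adjusted p = 0.00063) and with the mean of its probe sets (0.76, limma adjusted p = 0.0376). It was called as well on its second probe set (0.53 ± 0.17, limma adjusted p = 0.0487). Without the A549 EGF array of ID1 siRNA or of control siRNA B2M had 0.58, from the nicotine pair alone. Its A549 adjusted p ranged from 0.00063 to 0.818 over 17 alternatives. Whether saturation limits B2M was not tested.

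NLRC5 enters the nucleus and works through promoters of class I, B2M, TAP1 and immunoproteasome genes. NLRC5 had signals of 462 and 569 with ID1 siRNA in A549, against 99.7, 139.6 and 146 with control siRNA. In H1650, NLRC5 had signals of 306 and 272 with ID1 siRNA, against 573, 354 and 545 with control siRNA. The groups did not overlap in either line. NLRC5 rose in A549 by a log2 fold change of 2.12 ± 0.21 (limma adjusted p = 0.00028), and its value in H1650 was -0.64 ± 0.21 (limma adjusted p = 0.0834). The lowest NLRC5 signal, on the A549 nicotine control, was above the filter of 66.7.

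Without regard to the fit, 9 of the 10 genes had both A549 ID1 siRNA arrays above all 3 A549 controls, as had 23.0% of tested genes. In H1650, 5 of the 10 had both ID1 siRNA arrays below all 3 controls, as had 23.9% of tested genes. Within the A549 nicotine pair, 7 genes were at least 2-fold higher with ID1 siRNA, against 6.06% of tested genes, and within the EGF pair also 7, against 7.96%. Set against the unstimulated A549 control, which is not in the fit, the ID1 siRNA array was at least 2-fold higher for 5 genes under nicotine (3.19% of tested genes) and for 6 under EGF (3.53%). That array was the highest of the 3 A549 controls for 7 genes (TAP1, PSMB8, PSMB9, PSMB10, HLA-E, HLA-F and NLRC5), as it was for 37.6% of tested genes. In the H1650 nicotine pair 0 of the 10 were 2-fold higher and 0 lower, against 1.83% and 2.69% of tested genes, and in the EGF pair also 0 and 0, against 2.09% and 1.94%.

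The effect of ID1 siRNA differed between A549 and H1650 for 9 of the 10 genes, all in the same direction, against 6.98% of tested genes called higher for this difference. With arrays centred on their median, 623 tested genes were called higher and 1809 lower for it, against 874 and 616. The difference of log2 fold changes, A549 minus H1650, was 2.83 ± 0.13 for HLA-F (limma adjusted p = 7e-06), 2.77 ± 0.15 for PSMB9 (limma adjusted p = 2.17e-05), 2.76 ± 0.30 for NLRC5 (limma adjusted p = 0.000941) and 2.76 ± 0.17 for TAP1 (limma adjusted p = 3.27e-05). PSMB8, HLA-E and TAP2 had differences of 1.82, 1.72 and 1.62. The smallest called were those of PSMB10 at 0.94 and TAPBP at 0.81, and B2M at 0.33 ± 0.25 was not called (limma adjusted p = 0.432), but was under quantile normalization (0.72, limma adjusted p = 0.00365). The calls of PSMB10 and TAPBP were lost without the intensity trend (limma adjusted p = 0.104 and 0.0948) and without the pair block (limma adjusted p = 0.0869 and 0.0581). That of TAPBP was also lost with the mean of its probe sets (0.58, limma adjusted p = 0.193) and on the second probe set (0.50, limma adjusted p = 0.355). That of TAP2 was lost with the mean of its probe sets (0.78, limma adjusted p = 0.263).

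**Figure D3:**
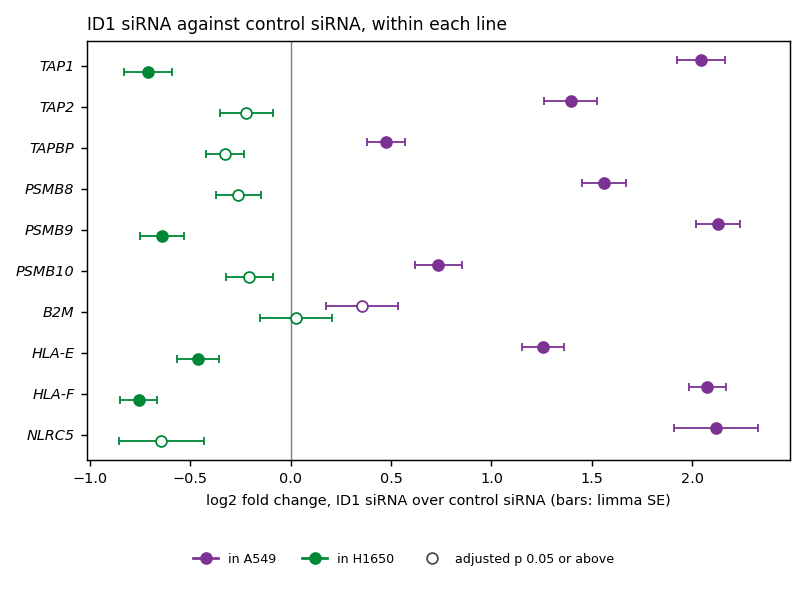
Log2 fold change of ID1 siRNA over control siRNA in A549 (purple) and H1650 (green) for each of the 10 genes. Points are limma estimates from the 8 stimulated arrays, bars are standard errors, and open points have an adjusted p of 0.05 or above. Apart from B2M, whose values are not called, the A549 values lie to the right of 0 and the H1650 values to the left.

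The lines started from different levels. With control siRNA, 9 of the 10 genes were lower in A549 than in H1650, against 30.0% of tested genes, and B2M was not called (log2 difference -0.13 ± 0.20, limma adjusted p = 0.613). HLA-F was lower by a log2 difference of -2.56 ± 0.13 (limma adjusted p = 4.94e-06), PSMB10 by -2.30 ± 0.13 (limma adjusted p = 6.33e-06) and PSMB9 by -1.95 ± 0.15 (limma adjusted p = 2.97e-05). NLRC5 had -1.92, HLA-E -1.76, TAP2 -1.62, TAP1 -1.38, PSMB8 -1.16 and TAPBP -0.79. The call of TAPBP was lost on its second probe set (-0.15, limma adjusted p = 0.546) and that of TAP2 with the mean of its probe sets (-0.55, limma adjusted p = 0.0904). For these 9 genes all 3 A549 controls lay below all 3 H1650 controls, as they did for 34.7% of tested genes. When line was averaged over all 10 arrays, ID1 siRNA included, 4 of the 9 calls remained: TAP2, PSMB10, HLA-E and HLA-F. With arrays centred on their median, 4585 tested genes were called higher and 2768 lower in A549, against 3441 and 3758. B2M was called lower in A549 with control siRNA under quantile normalization (-0.58, limma adjusted p = 0.00128) and with the mean of its probe sets (-0.80, limma adjusted p = 0.0179).

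With ID1 siRNA the order of the lines was no longer the same. TAP1 (log2 difference 1.24 ± 0.12, limma adjusted p = 3.21e-05), NLRC5 (0.83 ± 0.21, limma adjusted p = 0.00835), PSMB9 (0.77 ± 0.11, limma adjusted p = 0.000314) and PSMB8 (0.51 ± 0.11, limma adjusted p = 0.00353) were higher in A549 than in H1650, against 29.1% of tested genes. PSMB10 stayed lower in A549 (-1.30 ± 0.12, limma adjusted p = 2.12e-05), against 28.4%. TAP2, TAPBP, B2M, HLA-E and HLA-F were not called, with log2 differences between -0.08 and 0.19. On its second probe set HLA-F was lower in A549, at -0.40 ± 0.11 (limma adjusted p = 0.014), against 0.15 ± 0.09 on the brighter one. The call of NLRC5 was lost without the nicotine array of ID1 siRNA in A549 (0.74, limma adjusted p = 0.069) or in H1650 (0.57, limma adjusted p = 0.143). The comparisons of siRNA and of line share arrays.

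**Figure D4:**
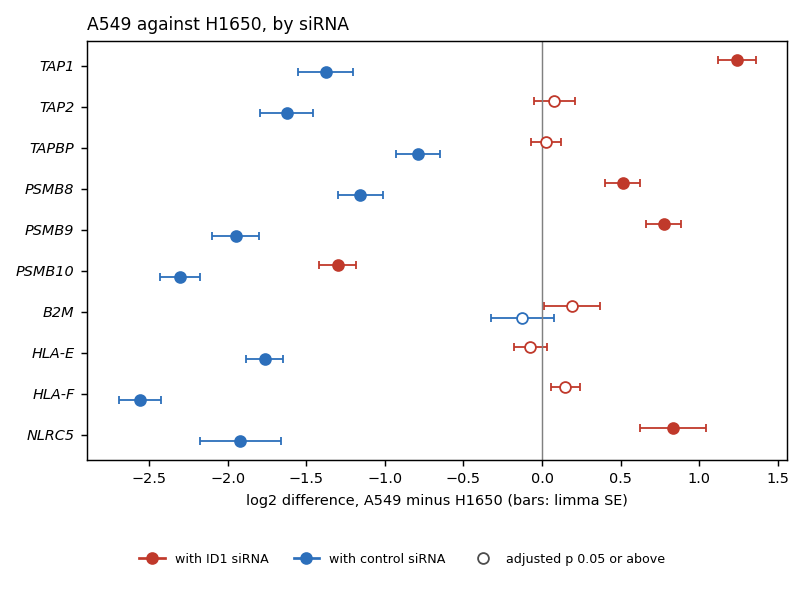
Log2 difference A549 minus H1650 for each of the 10 genes, with ID1 siRNA (red) and with control siRNA (blue). Points are limma estimates, bars are standard errors, and open points have an adjusted p of 0.05 or above. With control siRNA all 10 genes lie to the left of 0 and 9 are called, while with ID1 siRNA PSMB10 is the gene called lower in A549.

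The arrays on which each gene was highest and lowest followed from these levels. The A549 control with nicotine was the lowest of the 10 arrays for TAP1, TAP2, TAPBP, B2M, HLA-E, HLA-F and NLRC5, and the A549 control with EGF for PSMB8, PSMB9 and PSMB10. The H1650 control without a stimulus was the highest for TAP2, PSMB8, PSMB9 and PSMB10, and the H1650 control with nicotine for TAPBP, HLA-E, HLA-F and NLRC5. TAP1 and B2M were highest in A549 with ID1 siRNA and EGF. From the lowest to the highest array the signal differed 7.15-fold for HLA-F, 6.65-fold for PSMB10, 5.75-fold for NLRC5, 5.46-fold for PSMB9, 4.81-fold for TAP1 and 1.68-fold for B2M. With 1 array per condition, neighbouring arrays in these orders cannot be said to differ.

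The stimuli were compared with each other. For EGF against nicotine 0 of the 10 genes were called in A549, where 0.032% of tested genes were, and 0 in H1650, where 0.216% were. At an unadjusted p under 0.05 limma gave 2 of the 10 in A549, with 9.57% of tested genes, and 6 in H1650, with 10.7%. The largest values in H1650 were those of PSMB9 (log2 fold change -0.72 ± 0.11, limma adjusted p = 0.054) and TAP1 (-0.69 ± 0.12, limma adjusted p = 0.0758), whose EGF signals were the lower with either siRNA. PSMB9 and TAP1 were called when any 1 stimulated A549 array was left out, and PSMB10 without either stimulated A549 control. Stimulus was fitted within line, so these fits change only the errors of the H1650 values. Their log2 fold changes stayed at -0.72 for PSMB9, -0.69 for TAP1 and -0.55 for PSMB10. Without 1 stimulated H1650 array the value rests on 1 pair, and was -0.68 or -0.75 for PSMB9. For the difference between lines in this comparison 0 of 10 were called (0.0799% of tested genes), and 8 had an unadjusted p under 0.05, with 7.98% of tested genes, all with the A549 value above that of H1650. TAP1 was called for this difference without the H1650 nicotine or EGF array of ID1 siRNA (0.98, limma adjusted p = 0.0136 in both cases).

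Against no stimulus, over both lines with control siRNA, 0 of the 10 genes were called for nicotine and 0 for EGF, as were 0.0% of tested genes in each comparison. At an unadjusted p under 0.05 limma gave 1 of the 10 for nicotine and 4 for EGF, with 2.07% and 7.53% of tested genes. The 4 under EGF were PSMB8 (log2 fold change -0.77 ± 0.17, limma adjusted p = 0.556), TAP1 (-0.75 ± 0.22, limma adjusted p = 0.58), PSMB9 (-0.67 ± 0.18, limma adjusted p = 0.556) and PSMB10 (-0.50 ± 0.16, limma adjusted p = 0.599). Without the unstimulated H1650 control, PSMB8 (-1.0, limma adjusted p = 0.00512) and TAP1 (-0.96, limma adjusted p = 0.0129) were called for EGF. The other values for EGF lay between -0.35 (NLRC5) and 0.09 (B2M), with TAP2 at -0.20, HLA-F at -0.16 and HLA-E at -0.12. These values are means over the lines. Within a line, the median log2 ratio of the 10 genes for nicotine over none was -0.43 in A549 and 0.02 in H1650. For EGF over none it was -0.19 in A549 and -0.55 in H1650. Over all tested genes these medians lay between -0.03 and 0.02. Each is from 1 pair of arrays, and the difference between lines was not tested.

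Other genes of the pathway were counted on lists. With ID1 siRNA, 13.8% of all tested genes were called higher and 11.4% lower in A549. In H1650 these shares were 5.64% and 6.66%. No list was tested against these shares. Of 13 classical and other class I genes, 9 were tested, and in A549 with ID1 siRNA 4 rose and 1 fell (HFE, the iron regulator, at -0.67 ± 0.21). HLA-G rose by a log2 fold change of 2.62 ± 0.12 (limma adjusted p = 5.11e-06), HLA-B by 2.33 ± 0.13 (limma adjusted p = 1.1e-05) and HLA-C by 2.19 ± 0.12 (limma adjusted p = 1.1e-05). HLA-B and HLA-C are classical heavy chains. ULBP2, a stress ligand of NK cells, rose by 1.29 ± 0.14 (limma adjusted p = 0.000532), and the signals of the 3 HLA genes come from probe sets marked as able to bind other transcripts. HLA-B had signals of 8762 and 10946 with ID1 siRNA in A549, against 1734, 2202 and 2981 with control siRNA. In H1650, 3 of the 9 fell, among them HLA-G at -0.54 ± 0.12 (limma adjusted p = 0.0208), MICB, another stress ligand, at -0.64 ± 0.14 (limma adjusted p = 0.0237), and FCGRT, the heavy chain of the neonatal Fc receptor, at -1.0 ± 0.27 (limma adjusted p = 0.047).

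The other subunits of the proteasome core had lower values with ID1 siRNA in A549. Of 10 tested, 0 rose and 6 fell, against 13.8% and 11.4% of all tested genes. The median log2 fold change was -0.45, and the largest were PSMA5 (-0.58), PSMB4 (-0.55) and PSMA3 (-0.54). The count was 3 under quantile normalization and 10 with arrays centred on their median, and 0 of 10 were called in H1650. Of 6 tested assembly factors and activators, 0 were called in A549, and in H1650 PSME1, a subunit of the PA28 activator, fell by 0.50 ± 0.10 (limma adjusted p = 0.0161).

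Of 6 tested peptidases that trim peptides, 3 rose and 1 fell in A549, against 13.8% and 11.4% of all tested genes. ERAP2, which trims peptides in the endoplasmic reticulum, rose by a log2 fold change of 2.32 ± 0.26 (limma adjusted p = 0.00048), the cytosolic leucine aminopeptidase LAP3 by 1.23 ± 0.13 (limma adjusted p = 0.000456) and ERAP1 by 0.56 ± 0.13 (limma adjusted p = 0.0142), while the puromycin-sensitive aminopeptidase NPEPPS fell by 0.36 ± 0.11 (limma adjusted p = 0.0416). In H1650 ERAP1 fell by 0.50 ± 0.13 (limma adjusted p = 0.0384), the 1 call of that list. Of 5 tested chaperones, TAPBPL, a tapasin-related peptide editor, rose in A549 by 0.99 ± 0.20 (limma adjusted p = 0.00793), and 0 were called in H1650.

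Among 15 tested regulators of class I transcription, 4 rose and 1, RFX5, fell in A549, against 13.8% and 11.4% of all tested genes. The largest were IRF9, the DNA-binding part of the ISGF3 complex, at 1.27 ± 0.14 (limma adjusted p = 0.000552), IRF8 at 1.23 ± 0.36 (limma adjusted p = 0.0378) and IRF1 at 0.76 ± 0.16 (limma adjusted p = 0.0106). IRF8 had signals of 106 and 108 with ID1 siRNA in A549, against 43.1, 48.0 and 11.2 with control siRNA, which are below the filter. With arrays centred on their median 2 regulators rose and 6 fell in A549. In H1650 1, EZH2, rose and 5 fell, the largest being IRF2 (-1.15 ± 0.25, limma adjusted p = 0.0191), RFX5, a subunit of the complex that NLRC5 works with (-1.08 ± 0.11, limma adjusted p = 0.00135), and CREB1 (-0.71 ± 0.15, limma adjusted p = 0.0186).

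In the class II pathway 6 of 10 genes were tested, and CTSS, the cathepsin that cuts the invariant chain, was the 1 call in each line: it rose in A549 by 0.92 ± 0.20 (limma adjusted p = 0.012) and fell in H1650 by 0.89 ± 0.20 (limma adjusted p = 0.0249). Of 8 tested interferon receptors and checkpoint ligands 4 rose in A549, against 13.8% of all tested genes. CD47 was among them at 0.44 ± 0.14 (limma adjusted p = 0.047). The others were CD274, the gene of PD-L1, at 2.29 ± 0.16 (limma adjusted p = 3.96e-05), and IFNGR1 and IFNGR2, the chains of the interferon gamma receptor, at 2.04 ± 0.10 (limma adjusted p = 7.85e-06) and 0.77 ± 0.11 (limma adjusted p = 0.00141). In H1650 IFNAR2 fell by 0.81 ± 0.13 (limma adjusted p = 0.00589) and IFNGR2 by 0.53 ± 0.11 (limma adjusted p = 0.014). Without the intensity trend 0 genes of these lists were called in H1650.

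The lists were also counted between the lines with control siRNA. Of all tested genes 27.5% were called higher in A549 than in H1650 there and 30.0% lower. No list was tested against these shares. In A549 with control siRNA, 6 of the 9 tested class I genes were lower than in H1650 and 2 were higher, and HLA-G (log2 difference -3.32 ± 0.15, limma adjusted p = 3.1e-06), ULBP2 (-3.24 ± 0.23, limma adjusted p = 2.19e-05) and HLA-B (-2.94 ± 0.17, limma adjusted p = 8.83e-06) differed most. PSMB5 was higher in A549, at 1.42 ± 0.15 (limma adjusted p = 0.000149), as was PSMB6, at 0.52 ± 0.14 (limma adjusted p = 0.0162), opposite in sign to the inducible subunits. Of the other 20S subunits 2 of 10 were higher and 0 lower, and of assembly factors and activators 2 of 6 were higher and 1 lower. Among peptidases 2 were higher and 3 lower, led by ERAP2 at -3.72 ± 0.34 (limma adjusted p = 7.55e-05), and among chaperones 1 was higher and 2 lower, with TAPBPL at -1.50 ± 0.19 (limma adjusted p = 0.000398). Among regulators 2 were higher and 6 lower, led by IRF8 (-2.15 ± 0.53, limma adjusted p = 0.0101) and RFXANK (-1.49 ± 0.13, limma adjusted p = 6.04e-05). In the class II pathway 2 were higher and 4 lower, and CD74, the invariant chain, was at -4.49 ± 0.56 (limma adjusted p = 0.000344), with all its A549 signals below the filter. Of the receptors and checkpoint ligands 4 of 8 were lower, with CD274 at -2.47 ± 0.41 (limma adjusted p = 0.00147). For EGF against nicotine and for either stimulus against none, 0 genes of the lists were called.

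**Figure D5:**
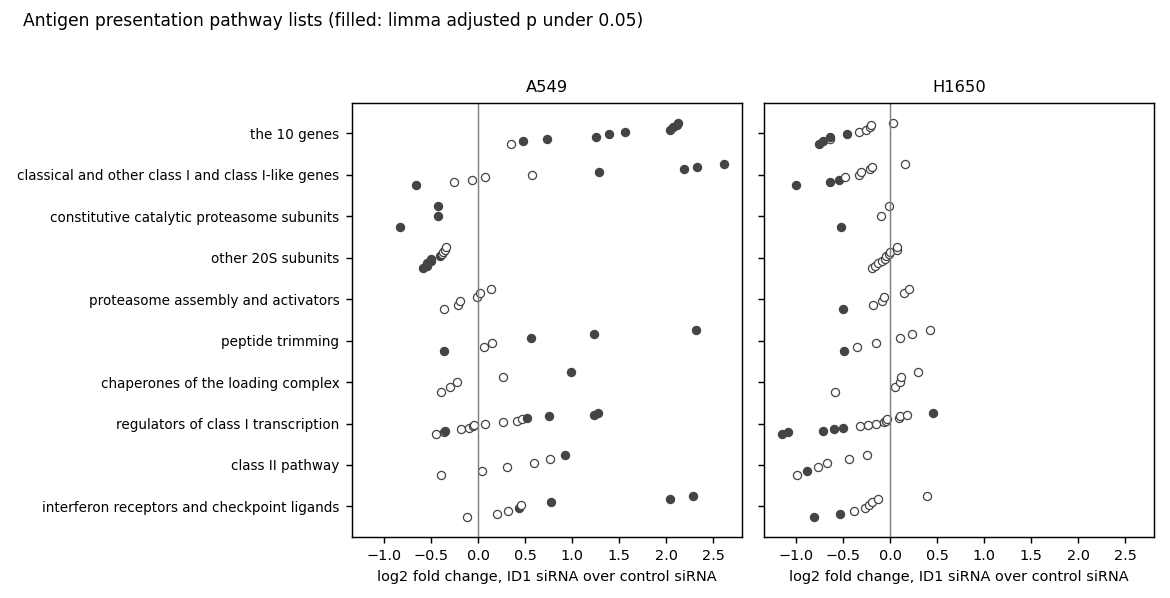
Log2 fold change of ID1 siRNA over control siRNA for the genes of each list, with A549 in the left panel and H1650 in the right panel. Each point is a gene, filled where the limma adjusted p was under 0.05. In A549 PSMB9, NLRC5, HLA-F and TAP1 lie above 2, as do HLA-G, HLA-B, HLA-C, ERAP2, CD274 and IFNGR1. The 6 called other 20S subunits lie below 0.

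Other probe sets of the same genes gave a repeat of the measurement on the same arrays. The second brightest probe sets in A549 gave log2 fold changes with ID1 siRNA of 0.89 ± 0.12 for TAP2 (limma adjusted p = 0.00127), 0.94 ± 0.15 for HLA-E (limma adjusted p = 0.00281) and 1.96 ± 0.11 for HLA-F (limma adjusted p = 1.66e-05). That of B2M had 0.53 ± 0.17 (limma adjusted p = 0.0487), and that of TAPBP was not called (0.34 ± 0.23, limma adjusted p = 0.317). Another HLA-E probe set, without the mark for binding other transcripts, had signals of 902 and 1098 with ID1 siRNA in A549, against 421, 456 and 560.3 with control siRNA. In H1650 it had signals of 837 and 707 with ID1 siRNA, against 1030.0, 761 and 1124 with control siRNA, so that the groups overlapped. The corresponding unmarked HLA-F probe set had 84.0 and 123 with ID1 siRNA in A549, against 43.5, 35.8 and 61.8 with control siRNA. In H1650 the second brightest HLA-F probe set also fell (-0.55 ± 0.11, limma adjusted p = 0.0168), and that of HLA-E had -0.31 ± 0.15 (limma adjusted p = 0.219). Those of TAP2, TAPBP and B2M were not called there, at -0.003, -0.16 and 0.06.

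Of the 10 genes, 7 lie on chromosome 6 (GRCh38.p14), between HLA-F, which begins at 29723434, and TAPBP, which ends at 33314078. TAP2, PSMB8, TAP1 and PSMB9 are neighbours in this order on a stretch of 38021 bases, chr6:32821831-32859851, with 1977, 529 and 487 bases between them. B2M is at chr15:44711517-44718145, and PSMB10 and NLRC5 are on chromosome 16 at 67934506 to 67936850 and 56989557 to 57083520. Of 81 other tested genes between HLA-F and TAPBP, 12 rose (14.8%, against 13.8% of all tested genes) and 7 fell (8.64%, against 11.4%) with ID1 siRNA in A549, with a median log2 fold change of 0.13. In H1650 2 of them rose (2.47%, against 5.64%) and 6 fell (7.41%, against 6.66%). For the difference of the ID1 siRNA effect, A549 minus H1650, 13 of the 81 were called higher (16.05%, against 6.98%). For the same difference 0 were called lower, against 4.92% of all tested genes. Whether the region differs from all tested genes was not tested. These 81 include class I heavy chains named above.

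The members were compared with each other and with all tested genes by their course over the 10 arrays, as a description in which the arrays share lines and treatments. Each member's Pearson correlation with the mean of the other 9 was 0.978 for TAP2, 0.974 for HLA-F, 0.967 for HLA-E, 0.967 for PSMB9, 0.966 for NLRC5, 0.935 for TAPBP, 0.910 for PSMB8, 0.850 for TAP1, 0.772 for PSMB10 and 0.435 for B2M. ID1 had a correlation of 0.056 with the mean of the 10. Outside the lists, the 8 genes most like that mean were SAMD9L (0.994), MX1 (0.991), HERC6 (0.989), XAF1 (0.988), SP110 (0.987), CMPK2 (0.987), OAS2 (0.987) and LAMP3 (0.986), over 10 arrays. MX1, an antiviral GTPase, had signals of 5755 and 7894 with ID1 siRNA in A549, against 361, 615 and 1091 with control siRNA. In H1650, MX1 had signals of 7663 and 4940.3 with ID1 siRNA, against 16098, 10308 and 16217 with control siRNA. Its siRNA groups did not overlap in either line and lay in opposite order. MX1 was picked for its course over these same arrays, so this order follows from the choice and is no separate result.

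Markers of other cell types were mostly below the filter. The summed signal of the 6 measured leukocyte markers was 326 to 338 in A549 with ID1 siRNA, against 218 to 340 in A549 with control siRNA, and 295 to 316 in H1650 with ID1 siRNA, against 271 to 341 in H1650 with control siRNA. PTPRC, the pan-leukocyte marker, had signals between 5.24 and 37.6. The 4 endothelial markers, 1 of them above the filter, summed to 339 to 415 with ID1 siRNA in A549, against 213 to 268 with control siRNA, and 409.8 to 435 in H1650 with ID1 siRNA, against 200.1 to 353 with control siRNA. The 5 fibroblast markers, 2 of them above the filter, summed to 839.9 to 851 with ID1 siRNA in A549, against 448 to 1020 with control siRNA, and to 828 to 1165 in H1650 with ID1 siRNA, against 660.4 to 749 with control siRNA. Of these COL1A1, a collagen, rose in A549 with ID1 siRNA (log2 fold change 1.14 ± 0.23, limma adjusted p = 0.00846), and DCN, a proteoglycan and the other one above the filter, was not called (-0.14 ± 0.37, limma adjusted p = 0.823). The part of other cell types in the results was not tested, and the samples are cultured lines.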

How the data were processed

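Each probe set of an array has 1 deposited intensity, for which the submitters' processing notes name GCOS 1.4 and MAS5. After removal of 2% of values at each end, array means were 500.1, so scaling to a common target preceded deposit, and array medians were 61.2 to 79.6. A log2 step is named in the labels, yet the values are on a linear scale, and log2 was taken here. Detection calls were not used here, and the number of arrays, 10, limits the precision.

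Of 54675 probe sets, 62 were controls, 1801 had several symbols and 11721 none. The other 41091 had 1 symbol, and 41037 were updated through their Entrez identifier. Some genes of the lists are not reported here. Per gene the brightest probe set was kept, and 12514 genes at or above log2 6.06 were tested with limma 3.58.1 in R 4.3.3, with an intensity trend and Benjamini-Hochberg adjustment. Tables were made in Python 3.11.15 with pandas 2.3.3. The effects of ID1 siRNA, of EGF against nicotine and of line with ID1 siRNA come from a fit to the 8 stimulated arrays, with line, siRNA within line and stimulus within line, so that siRNA is compared within pairs of the same line and stimulus. Line with control siRNA and stimulus against none come from a fit of line and stimulus to the 6 control siRNA arrays. Each fit has 2 residual degrees of freedom, and limma adds a median of 6.64 and 5.56 from other genes. Errors are limma standard errors.

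The 10 genes and the lists (class I genes, constitutive and other 20S subunits, assembly factors and activators, peptidases, chaperones, regulators, class II pathway, receptors and checkpoint ligands, and markers of epithelium, leukocytes, fibroblasts and endothelium) were chosen with earlier results of these data known, so counts over them are descriptions. Named are the 10 genes, ID1, up to 3 genes per list and comparison with the largest changes among those that passed, and the 8 genes outside the lists most like the mean of the 10. NPEPPS, HFE, ULBP2, CD47, EZH2, COL1A1 and RFX5 in A549, with DCN, were named after their values were seen. Alternatives were quantile normalization, centring on the array median, 16 added to the signal, no filter or one at the 75th percentile, no intensity trend, the mean of all probe sets or the second brightest, no pair block, all 10 arrays, and leaving out each array.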

Additional observations from a re-analysis of the deposited data

Results flagged for a closer look

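The effect of ID1 siRNA differed between A549 and H1650, by limma's test of the difference itself, for 9 of the 10 genes, and each of these 9 had a positive log2 fold change in A549 and a negative one in H1650. The differences, A549 minus H1650 on the log2 scale, were 2.83 for HLA-F, 2.77 for PSMB9, 2.76 for NLRC5, 2.76 for TAP1, 1.82 for PSMB8, 1.72 for HLA-E, 1.62 for TAP2, 0.94 for PSMB10 and 0.81 for TAPBP. Among all tested genes 6.98% were called in this direction. Groups of 2 or 3 arrays are too small for a check of single outlying arrays.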

How the results depend on the processing

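The 36 results of the 10 genes that passed kept their direction in all 563 alternative values, and 528 of these stayed past the threshold. Many of these values could not change direction. A log2 fold change stays the same without the intensity trend or the pair block and with another filter. Within a line it also stays the same when an array of the other line is left out. Of 977 alternative values of the 64 results that did not pass, 39 passed, and 48 had the other sign without passing. With ID1 siRNA in H1650, the count of called genes, 4, was 0 without the intensity trend and 1 without the pair block. For EGF against nicotine in H1650, the count of 0 was 2 with array-median centring, 1 with 16 added to the signal and 3 with the filter at the 75th percentile. The count also rose when 1 array was left out, and leaving out an A549 array changes no estimate in H1650. For the difference of that effect between lines it was 0 to 1 with 1 array left out, and for EGF against no stimulus 0 to 2. For A549 against H1650 with control siRNA the count of 9 was 4 over all 10 arrays, a fit that includes ID1 siRNA. HLA-F with ID1 siRNA changed sign between lines on its second probe set, at -0.40, and the cause was not tested.

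Counts over all tested genes moved more. The 3161 genes called for ID1 siRNA in A549 became 4914 with array-median centring, 1394 without the trend, 1747 with the mean of probe sets and 1452 to 3598 with 1 array left out. The 1540 in H1650 became 1, 592 and 981 to 1862 without the trend, with the mean and with 1 array left out. The 1490 for the difference became 2432 with centring, 199 without the trend, 636 with the mean, 957 without the pair block and 878 to 1665 with 1 array left out. With centring the median log2 fold change of all genes for ID1 siRNA in A549 was -0.23, and 0.05 without it, so small changes there depend on the scaling. The ID1 siRNA effects are paired by line and stimulus, and replicate numbers, all 1, give no further pairing. Dim probe sets, such as the A549 controls of NLRC5 and IRF8, limit how well their folds are known.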
